A study of Caenorhabditis elegans with 2 samples.

Results

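The target of rapamycin (TOR) kinase and the AMP-activated protein kinase (AMPK) read the nutrient and energy state of a cell. TOR acts in 2 complexes: TORC1, which contains RAPTOR, promotes protein synthesis and restrains autophagy, and TORC2, which contains RICTOR, acts on kinases such as SGK and AKT. AMPK is switched on by low energy, and in Caenorhabditis elegans both kinases bear on lifespan and on fat stores, which lie largely in the intestine. DAF-16 is the FOXO (forkhead) transcription factor that insulin-like signalling holds out of the nucleus, and AMPK can phosphorylate it. The 8 genes described here were taken by name: let-363 (the TOR kinase), daf-15 (RAPTOR), rict-1 (RICTOR), rsks-1 (the ribosomal S6 kinase), raga-1 and ragc-1 (Rag GTPases that bring TORC1 to the lysosome) and aak-1 and aak-2 (the catalytic alpha subunits of AMPK). They are 8 of 19973 nuclear protein-coding genes, and all 8 were found in the annotation.

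The data are lists of DAF-16 binding peaks from 2 biological replicates of 1 group, made by chromatin immunoprecipitation and sequencing with an antibody against GFP. Strain ZM8745 was used, as hermaphrodites at the L4 larval stage, harvested 54 hours after synchronization as starved L1 larvae. It carried daf-16(mu86), a deletion of the native gene, daf-2(e1370), an allele of the insulin receptor gene, and hpSi15, in which the intestinal ges-1 promoter drives GFP fused to daf-16a. Both replicates share this genotype and no comparison between conditions can be made. The labels give the tag in front of daf-16a in one place and at the C-terminus in another, and name daf-16 as well as GFP under the antibody. Whole animals were used, so DNA of cells without the tagged protein is in the sample, and peak lists hold no expression from which tissues could be checked.

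For each gene, entries were taken whose summit lay between 3000 bp upstream of the gene start and the gene end, called here the gene window. Entries came from 4 ce11 lists. The optimal list, of 1489 entries, was made from the other 3 with a measure of reproducibility between replicates. The others were a list of 30000 entries called on both replicates pooled, and lists of 28175 and 22676 entries for replicates 1 and 2. The last 3 lists hold peaks together with background. Rank is by the authors' signal per peak, with rank 1 the highest. The scale of that signal is not stated, so it describes entries within a list only, and with no read counts the depth is unknown. The 1489 optimal entries are the first 1489 of the pooled list.

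Of the 8 genes, rict-1 and aak-2 had an optimal summit in the gene window, and let-363, daf-15, rsks-1, raga-1, ragc-1 and aak-1 had none. Under the same rule 8.24% of all protein-coding genes had one, or 1645 of 19973. Both entries were in the lower part of the optimal list, at rank 1146 for rict-1 and rank 1474 for aak-2. In the narrower promoter window, from 1000 bp upstream to 500 bp downstream of any transcript start, rict-1 was the 1 gene of 8 with an optimal summit, beside 4.19% of all protein-coding genes. With 8 genes, neither count was tested against that background. The count of 2 in the gene window was 1, rict-1, when the first 1489 entries of either replicate alone replaced the optimal list, and 1, aak-2, when each entry went only to the nearest transcript start. It was 0 among the optimal entries with a signal of at least 118.9, which 4.22% of all protein-coding genes had.

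The share of genes with an optimal entry grew with the length of the window. The median window of the 8 genes was 10237 bp, against 5027 bp over all protein-coding genes. The windows of raga-1 and ragc-1, of 4418 and 4321 bp, were shorter than that. Among genes with windows over 20 kb, the class of rict-1 and let-363, 19.3% had an optimal summit. Among those of 8 to 12 kb, the class of aak-2, rsks-1 and daf-15, it was 12.9%. The share was 8.89% in the class of aak-1 and 5.99% in that of raga-1 and ragc-1. The shares by window length are plotted with the members of each class.

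**Figure D1:**
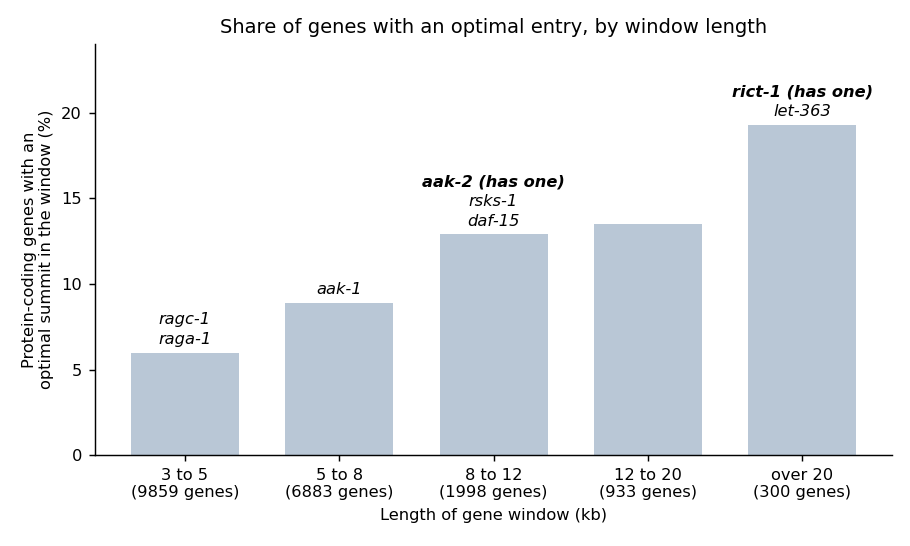
Share of nuclear protein-coding genes with an optimal summit in the gene window (percent, bars) by window length in kb, with the number of genes in each class and the names of the members that fall in it. The share is 5.99% in the shortest class and 19.3% in the longest. Bold marks rict-1 and aak-2, which have an optimal entry.

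rict-1 (WBGene00009245, minus strand of chromosome II, 13098239 to 13116810) encodes RICTOR, the subunit that defines TORC2. Its optimal entry spanned chrII:13117163-13117582 with a signal of 97.77. The summit lay at 13117373, which is 563 and 567 bp upstream of the starts of transcripts F29C12.3a.1 and F29C12.3b.1 and 7137 bp upstream of that of the short transcript F29C12.3c.1. The entry ranked 854 in replicate 1, with a signal of 64.27, and 1338 in replicate 2, with 43.45. Both ranks are within the first 1489 of their lists, and the replicate summits were 8 and 41 bp from the pooled one. No other member had an entry that high in either replicate.

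The rict-1 summit lies between 2 genes that point away from each other. It was 110 bp upstream of the start of gfm-1, which encodes a mitochondrial translation elongation factor, and so nearer to that gene than to rict-1. Which of the 2 genes the entry belongs to cannot be told from its position. No transfer, small nucleolar, small nuclear or micro RNA gene lay within 100 bp. The other 7 pooled entries in the rict-1 window ranked from 10382 to 28927, and 4 of those 7 overlapped no entry of either replicate.

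aak-2 (WBGene00020142, plus strand of chromosome X, 16796087 to 16803398) encodes an AMPK catalytic subunit required for the long life of daf-2 mutants. Its optimal entry spanned chrX:16796762-16797181 with a signal of 84.74, just above 84.33, the lowest signal in the optimal list. The summit at 16796972 lay in intron 1 of transcripts T01C8.1a.1 and T01C8.1b.1, 885 and 883 bp downstream of their starts, and 2735 bp upstream of the start of T01C8.1c.1. The entry ranked 2184 in replicate 1, with a signal of 42.29, and 1907 in replicate 2, with 37.04. Neither rank is within the first 1489 of its list, which was so for 58 of the 1489 optimal entries, or 3.90%, of which 32 were among the last 100. The replicate summits were nonetheless 1 and 3 bp from the pooled one. A non-coding RNA gene, T01C8.9, lay 143 bp from the summit.

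aak-2 had another entry in the same intron at rank 3143, with a signal of 58.98. It lay 625 bp upstream of the start of T01C8.1c.1, the short transcript, and 2995 bp downstream of the gene start. It ranked 2461 in replicate 1 and 5418 in replicate 2. The remaining 6 pooled entries of aak-2 ranked from 11601 to 24677. Per 10 kb of window aak-2 had 7.758 pooled entries, the densest of the 8 genes, against 3.226 over the windows of all protein-coding genes. It was not the densest in either replicate. In replicate 1 rsks-1 had 9.841 per 10 kb and aak-2 4.849, and in replicate 2 raga-1 had 6.79 and aak-2 3.879.

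The sequence at the summits is shown to let the letters under the entries be compared, 101 bp each, in the direction of the gene, from the RefSeq WBcel235 genome. Capitals mark 7 motifs searched on both strands. TGATAAG is the DAF-16 associated element and also a GATA factor site, and every copy of it overlaps the shorter TGATAA. The DAF-16 binding element was searched as TGTTTAC and as TATTTAC. The E-box of basic helix-loop-helix factors is CACGTG, and the other motifs were the 7-mers GACGCAG and GAGAGAG. The E-box and both 7-mers were chosen with results of these data known. The windows are rict-1 at chrII:13117323-13117423 (minus strand), aak-2 at chrX:16796922-16797022 (plus), rsks-1 at chrIII:11243567-11243667 (plus), ragc-1 at chrIV:11604944-11605044 (minus) and aak-1 at chrIII:8759316-8759416 (minus).
rict-1: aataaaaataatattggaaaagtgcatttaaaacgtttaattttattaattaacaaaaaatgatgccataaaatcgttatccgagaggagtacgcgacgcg
aak-2: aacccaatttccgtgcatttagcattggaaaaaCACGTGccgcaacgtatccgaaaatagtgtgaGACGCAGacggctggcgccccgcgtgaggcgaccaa
rsks-1: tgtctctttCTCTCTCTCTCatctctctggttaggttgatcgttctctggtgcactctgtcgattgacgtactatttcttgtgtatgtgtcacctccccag
ragc-1: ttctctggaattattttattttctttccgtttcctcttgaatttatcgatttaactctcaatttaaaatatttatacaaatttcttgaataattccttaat
aak-1: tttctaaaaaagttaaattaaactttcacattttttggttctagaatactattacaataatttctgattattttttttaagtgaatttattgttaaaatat

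Neither TGATAAG nor either form of the DAF-16 binding element lay within 50 bp of the rict-1 or the aak-2 optimal summit. Over the 1464 nuclear optimal summits, 8.81% had TGATAAG, 4.17% TGTTTAC and 1.23% TATTTAC, and 13.7% had at least 1 of the 3. The aak-2 summit had CACGTG from base 34 and GACGCAG from base 66 of the window shown, which were at 4.85% and 6.83% of nuclear optimal summits. The rsks-1 summit had a run of GAGAGAG on the other strand, a 7-mer at 7.10% of nuclear optimal summits and 2.59% of nuclear pooled ones. The base composition varied widely: 28.7% of the bases were G or C at rict-1, 54.5% at aak-2, 46.5% at rsks-1, 21.8% at ragc-1 and 15.8% at aak-1, where the median of nuclear optimal summits was 46.5% and that of nuclear pooled ones 35.6%.

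Over all 41 pooled summits of the 8 genes, 1 had TGATAAG (2.44%, against 2.97% of all nuclear pooled summits) and none had TGTTTAC or TATTTAC. The shorter TGATAA was at 5 of the 41, or 12.2%, against 11.5%. The 1 summit with TGATAAG lay in an intron of rict-1 at rank 28927 and overlapped no replicate entry. TGATAAG occurred 16 times in the 8 windows together, 1.77 per 10 kb against 1.86 over the nuclear genome, and TGTTTAC 6 times, 0.664 against 1.19 per 10 kb. Of these copies 1 and 0 lay wholly within 50 bp of a pooled summit. The TGTTTAC copies were 3 in the daf-15 window, 2 in that of let-363 and 1 in that of aak-1.

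Of the 6 genes with no optimal entry, let-363 had the highest pooled rank. let-363 (WBGene00002583, plus strand of chromosome I, 5245743 to 5263424) had 10 pooled entries in its window. The highest, at chrI:5261539-5261958, ranked 1810 with a signal of 75.56, and its summit was in intron 29 of a gene with 32 exons, 16006 bp from the gene start. It ranked 2008 in replicate 1 and 4095 in replicate 2, with replicate summits 0 and 10 bp away, and the nearest transcript start was that of the next gene, vep-1, 1945 bp further on. Near its own start let-363 had an entry at rank 5222, in intron 2, 352 and 314 bp downstream of its 2 transcript starts, which ranked 10510 in replicate 1 and 4387 in replicate 2.

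rsks-1 (WBGene00012929, plus strand of chromosome III, 11245120 to 11252281) encodes the S6 kinase, a substrate of TORC1. It had 3 pooled entries upstream of its single transcript start, at distances of 1503, 723 and 513 bp and ranks of 3070, 3506 and 10299, with signals of 59.61, 55.98 and 36.69. In replicate 1 these ranked 3672, 5666 and 23196. In replicate 2 the farthest ranked 10424, and the other 2 overlapped a single entry at rank 3884. A pooled entry at rank 4552 lay in the 3' UTR and ranked 1636 in replicate 1 and 3074 in replicate 2, where its summit was 241 bp away. This summit was 6736 bp from the rsks-1 start and 535 bp upstream of the start of the next gene, Y47D3A.32. So the highest replicate ranks in the rsks-1 window were at the end of the gene, nearer to Y47D3A.32. The highest pooled rank was upstream of the rsks-1 start.

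daf-15 (WBGene00000911, plus strand of chromosome IV, 9386208 to 9394979) encodes RAPTOR, and its transcription has been reported to respond to DAF-16. It had a single pooled entry in a window of 11772 bp, or 0.8495 per 10 kb, the lowest of the 8 genes. That entry ranked 17568, lay 2444 bp upstream of the gene start, nearer to the start of C10C5.7, and overlapped no entry of either replicate. Each replicate alone had an entry at the start of transcript C10C5.6c.1, the first of 3 daf-15 starts, with the summit 2 bp downstream of it in replicate 1 and 3 bp in replicate 2. These ranked 25831 of 28175 and 16520 of 22676. The 2 summits were 1 bp apart, and the stretch they share had TATTTAC within 50 bp, on the other strand. Among nuclear pooled summits 2.3% had TATTTAC. Replicate 1 had a further entry 344 bp upstream, at rank 8511. Of all protein-coding genes, 55.7% had a higher-ranked pooled entry in their window than daf-15.

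The Rag GTPase genes have short windows, of 4418 bp for raga-1 (WBGene00006414, plus strand of chromosome II, 11301359 to 11302776) and 4321 bp for ragc-1 (WBGene00012497, minus strand of chromosome IV, 11603613 to 11604933). The highest raga-1 entry ranked 8884, with its summit 1306 bp upstream of the start, inside the neighbouring gene saps-1. It ranked 7801 in replicate 1 and overlapped no entry in replicate 2. Replicate 2 alone had entries 371 and 93 bp upstream of the raga-1 start, at ranks 20123 and 18074 of 22676. The summit at 371 bp had TGATAAG on both strands within 50 bp, a motif at 2.97% of nuclear pooled summits. ragc-1 had 2 pooled entries close to its start, 61 and 283 bp upstream, at ranks 6979 and 7580. Around them replicate 2 had 1 entry, at rank 3803 and 151 bp upstream, where replicate 1 had entries at ranks 27022 and 20345, the second of them inside Y24F12A.1. The farther pooled summit was 38 bp upstream of the start of Y24F12A.1, which runs the other way. The replicates thus ranked this shared upstream region far apart.

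aak-1 (WBGene00019801, minus strand of chromosome III, 8756990 to 8761090), the other AMPK catalytic subunit gene, had 3 pooled entries and none within the promoter window. The highest, at rank 5782 with a signal of 46.12, lay in an intron 1724 bp downstream of the gene start. It ranked 6059 in replicate 1 and 20586 in replicate 2, with summits 5 bp away in both. The highest aak-1 entry of replicate 2, at rank 6303, was another one, near the gene end. The 2 catalytic subunit genes of AMPK differed in their highest pooled rank, 1474 for aak-2 and 5782 for aak-1, in windows of 10312 and 7101 bp.

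**Figure D2:**
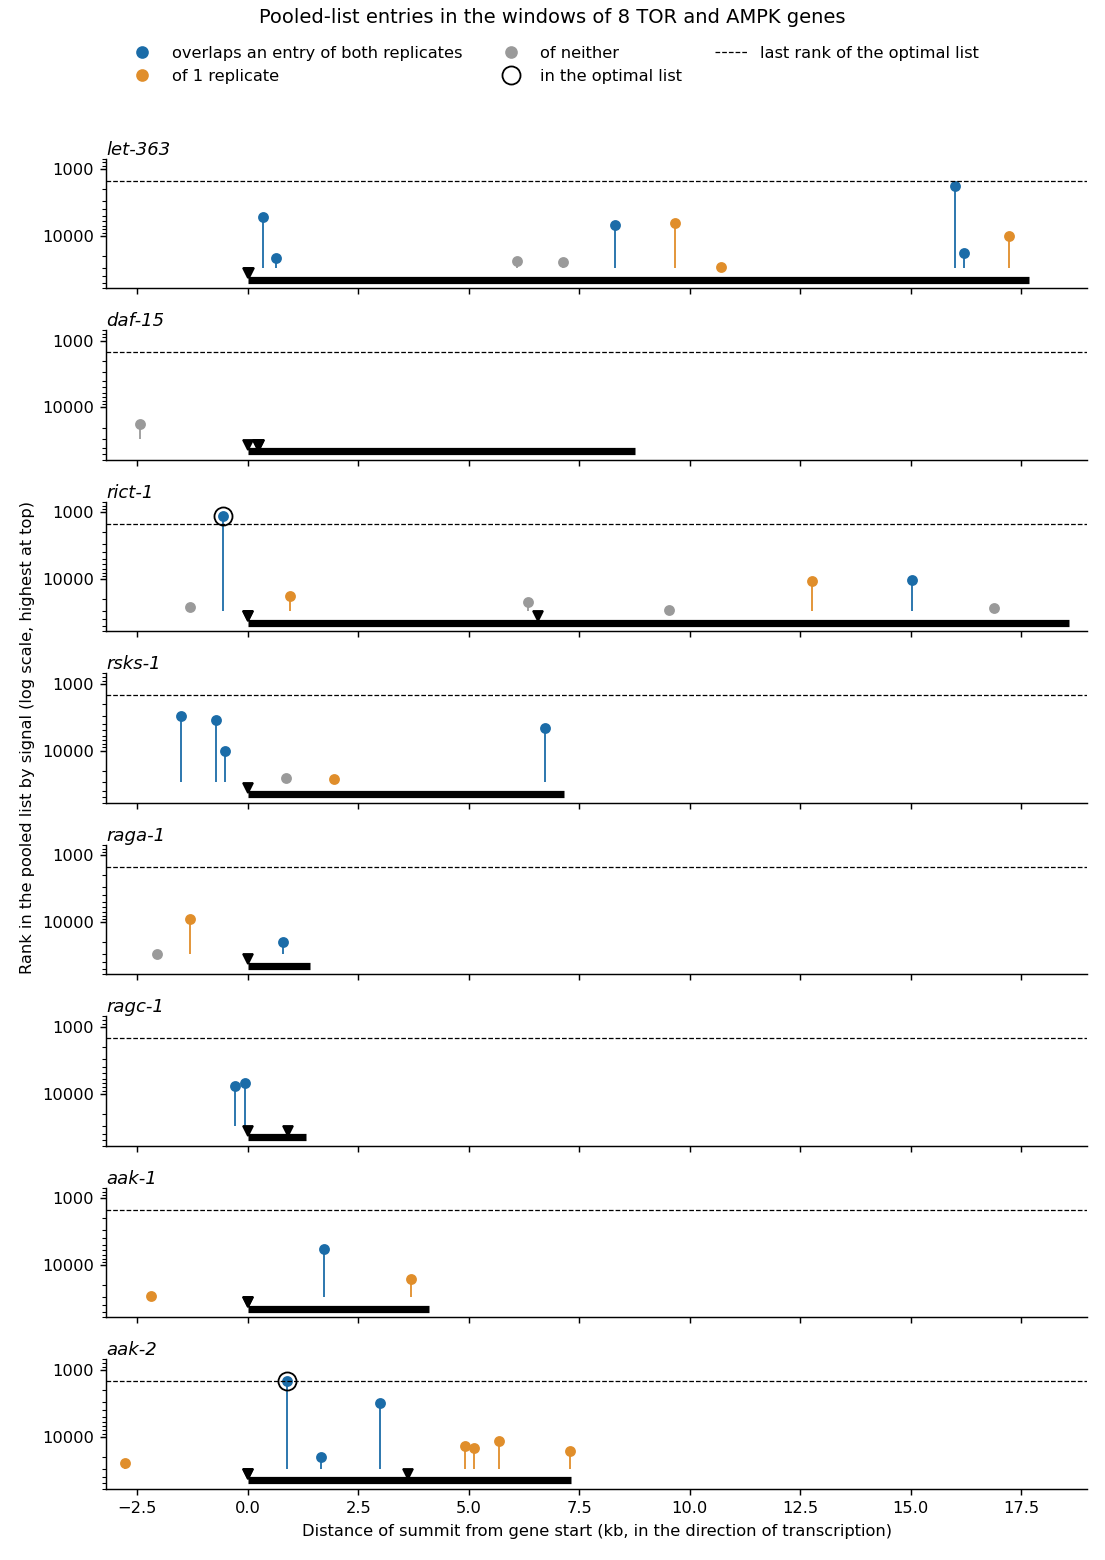
Pooled-list entries in the window of each gene: distance of the summit from the gene start in kb (horizontal) and rank by signal (vertical, log scale, highest at the top). Bars show the gene, triangles its transcript starts, circles the entries of the optimal list, and colour whether an entry overlapped an entry of both replicates, 1 or neither. Only the rict-1 entry at rank 1146 and the aak-2 entry at rank 1474 reach the dashed line at rank 1489.

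Ordered by the highest pooled rank, the genes ran rict-1 (1146), aak-2 (1474), let-363 (1810), rsks-1 (3070), aak-1 (5782), ragc-1 (6979), raga-1 (8884) and daf-15 (17568). The order of the highest ranks differed between the replicates. In replicate 1 it was rict-1 (854), rsks-1 (1636), let-363 (2008), aak-2 (2184), aak-1 (6059), raga-1 (7801), daf-15 (8511) and ragc-1 (20345). In replicate 2 it was rict-1 (1338), aak-2 (1907), rsks-1 (3074), ragc-1 (3803), let-363 (4095), aak-1 (6303), raga-1 (14690) and daf-15 (16520). The replicate ranks given for rsks-1 are those of the entries at its gene end, nearer to the start of Y47D3A.32. rict-1 was first in all 3 lists, and rsks-1, let-363 and aak-2 changed places between replicates. ragc-1 moved most, from last in replicate 1 to ahead of let-363 in replicate 2. The order below rict-1 is thus not resolved. The median of the highest pooled ranks was 4426 for the 8 genes, against 7962.5 for the protein-coding genes that had an entry, whose windows are shorter.

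The 8 windows held 41 pooled entries, 4.538 per 10 kb, against 3.226 over the windows of all protein-coding genes. Replicate 1 had 35 entries there, 3.874 against 3.031 per 10 kb, and replicate 2 had 28, 3.099 against 2.455. By the annotation of the gene itself, 18 of the 41 summits lay in introns, 12 upstream, 9 in coding exons and 2 in a 3' UTR. Entries of both replicates overlapped 18 of the 41, or 43.9%, the same share as over all 29975 nuclear pooled entries. Those without an entry of either replicate numbered 9, or 22.0%, against 9.62%. The plot of replicate ranks sets these entries among the optimal ones.

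**Figure D3:**
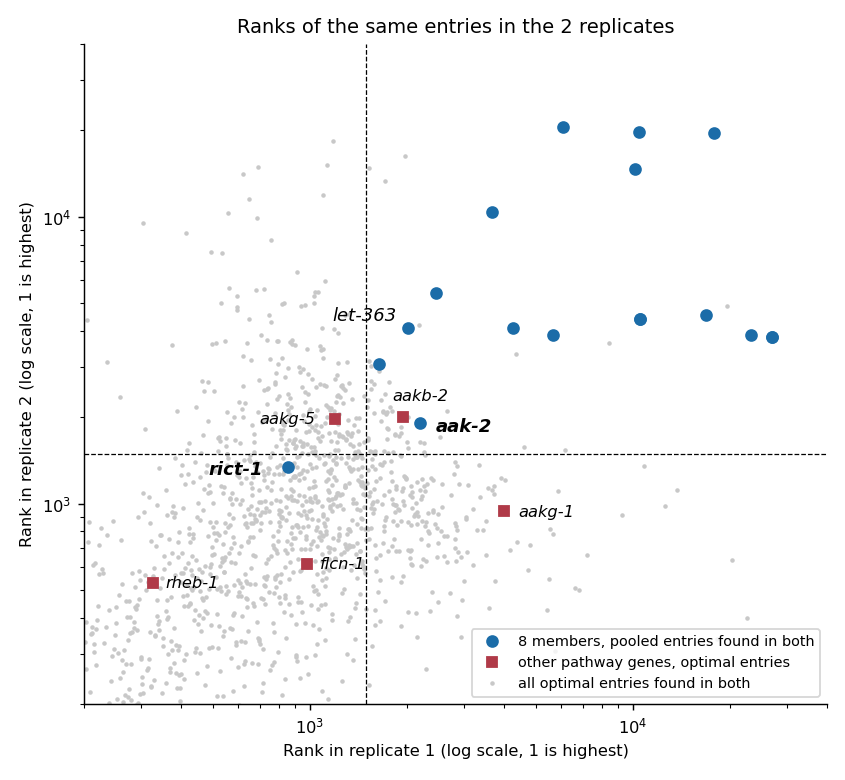
Rank in replicate 2 against rank in replicate 1 (both log scales, 1 is highest, axes from rank 200) for pooled entries of the 8 genes that overlap an entry of both replicates (blue circles, some sharing a replicate entry), optimal entries of other pathway genes (red squares) and optimal entries (grey). Grey points are drawn only for optimal entries found in both replicates, and those ranked above 200 in either fall outside the axes. Dashed lines mark rank 1489. rict-1 lies inside both lines at 854 and 1338, and aak-2 outside both at 2184 and 1907.

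In the promoter window 5 of the 8 genes had a pooled summit: let-363, rict-1, rsks-1, ragc-1 and aak-2, beside 45.5% of all protein-coding genes. Replicate 1 had a promoter summit at 6, these and daf-15, beside 44.9% of genes. Replicate 2 had one at 7, all but aak-1, beside 39.4% of genes. As these lists include background, such an entry does not by itself mark a bound site.

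Of 35 other genes of the 2 pathways, 5 had an optimal summit in the gene window, or 14.3%, against 8.24% of all protein-coding genes, and their median window was 7371 bp. Of the 5, flcn-1 and aakg-1 have windows of 22138 and 39738 bp, in the class over 20 kb where 19.3% of genes had one. The 5 genes were 2 of 9 partners and regulators of TORC1 and 3 of 7 beta and gamma subunits of AMPK. None was among the 4 partners and targets of TORC2 or the 8 targets and effectors of TOR. Nor was any among the 3 genes of the complex of LKB1, the kinase that activates AMPK, or the 4 AMPK targets. In groups of 3 to 8 genes, having none is near the share of 8.24% over all protein-coding genes. Such groups are too small to be set against each other, and no difference between roles was tested. In the promoter window 3 of the 35 had one, beside 4.19% of all protein-coding genes: rheb-1, aakb-2 and aakg-5.

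**Figure D4:**
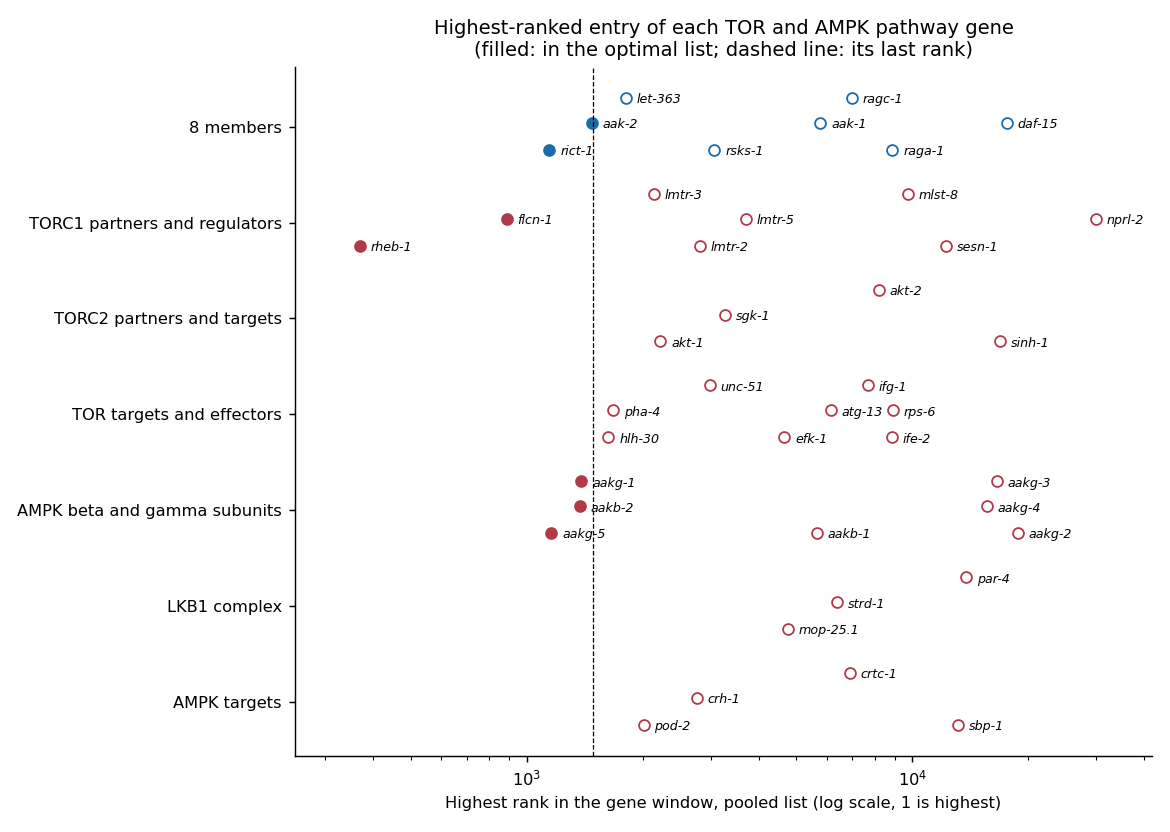
Highest rank in the gene window in the pooled list (log scale, 1 is highest) of the 8 genes (top row, blue) and 34 of the 35 other pathway genes by role (red). nprl-3, with no pooled entry in its window, is not drawn. Filled points are in the optimal list, whose last rank is the dashed line. rheb-1 has the highest rank, 369.

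The highest of these was at rheb-1, the GTPase that switches TORC1 on, with a signal of 163.1 at rank 369. It ranked 327 in replicate 1 and 529 in replicate 2, with its summit 257 bp upstream of the transcript start on chromosome III. flcn-1, which encodes folliculin, a regulator of the Rag GTPases, had an entry at rank 887, but 2109 bp upstream of the nearest flcn-1 start, inside the neighbouring gene F22D3.4 and 99 bp from the non-coding RNA gene F22D3.7. It ranked 979 and 617 in replicates 1 and 2.

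Of the AMPK subunits, aakg-5 (gamma) had an entry at rank 1158, 20 bp downstream of the start of R53.7a.2, in the 5' UTR, and 401 bp upstream of that of R53.7a.1. aakb-2 (beta) had one at rank 1375, 26 bp downstream of its single start, in coding exon 1. aakg-1 (gamma) had one at rank 1386 in an intron, 6960 bp downstream of the gene start and 5363 bp upstream of its nearest transcript start. The aakg-5 entry ranked 1197 and 1972 in replicates 1 and 2, that of aakb-2 1940 and 2004, and that of aakg-1 3983 and 939. Like aak-2, aakb-2 was outside the first 1489 of both replicates.

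The summits of the AMPK subunits and of rheb-1 are shown in the same way, to set them beside that of aak-2: aakg-5 at chrII:9975055-9975155 (minus strand), aakb-2 at chrIII:11237119-11237219 (plus), aakg-1 at chrIII:12568391-12568491 (minus) and rheb-1 at chrIII:9456237-9456337 (minus).
aakg-5: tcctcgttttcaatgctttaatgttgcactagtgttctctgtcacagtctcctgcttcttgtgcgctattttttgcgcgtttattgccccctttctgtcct
aakb-2: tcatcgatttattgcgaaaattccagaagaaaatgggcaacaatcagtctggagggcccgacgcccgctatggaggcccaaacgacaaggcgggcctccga
aakg-1: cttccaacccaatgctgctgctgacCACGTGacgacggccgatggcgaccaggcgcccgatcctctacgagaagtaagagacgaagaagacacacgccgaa
rheb-1: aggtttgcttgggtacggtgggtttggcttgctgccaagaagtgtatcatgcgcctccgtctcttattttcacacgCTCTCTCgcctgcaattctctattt

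CACGTG was at the aakg-1 summit, as at that of aak-2, and GAGAGAG on the other strand at that of rheb-1. aakg-5 and aakb-2 had none of the motifs searched, and no optimal summit of the 5 pathway genes had TGATAAG or either form of the DAF-16 binding element within 50 bp. The genes most like rict-1 and aak-2 in the pooled rank of their highest optimal entry were F27C1.2 and F27C1.6, which share an entry at rank 1145, for rict-1, and B0272.3 at 1473 and Y71F9AL.10 at 1476 for aak-2. The likeness is in the pooled rank only. In replicates 1 and 2 the rict-1 entry ranked 854 and 1338, against 1307 and 1755 for that of F27C1.2 and F27C1.6. The aak-2 entry ranked 2184 and 1907, against 759 and 8289 for that of B0272.3 and 1634 and 2901 for that of Y71F9AL.10.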

How the data were processed

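Peak lists of 2 biological replicates on ce11 were used. Per the deposited file listing, each replicate list was made from that replicate's alignments and 1 further file, the pooled list from the alignments of both, and the optimal list from these 3 by the irreproducible discovery rate. Which aligner and peak caller were run, and at which discovery rate, is not given in the sources used here. Values are the deposited signal per peak, whose scale is not stated, and positions. The ce10 lists were not analysed here. A summit is the entry start plus the deposited offset.

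Genes and coding transcript starts came from Ensembl release 115 and sequence from RefSeq, both WBcel235, which is ce11. A pooled entry was matched to the overlapping replicate entry (at least 1 bp) with the nearest summit. Analysis used Python 3.11.15, numpy 2.4.6, pandas 2.3.3 and matplotlib 3.10.9. The code that counts summits in windows was checked on planted summits, and no count was compared with simulated data. With 1 group and no read counts, no test, error or interval was computed, and the 2 replicates are given singly. Motif matches were exact.

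The members and the pathway list were chosen with earlier results of these data known. Named genes were the 8 members, pathway genes with an optimal entry, genes next to an entry and the 2 genes nearest in rank. Alternatives left out each replicate or changed the gene or promoter window, the signal threshold, the overlap rule, the gene assignment or the width searched for motifs.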

Additional observations from a re-analysis of the deposited data

How the results depend on the processing

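Of 25 alternatives over 5 results, 18 left the count within 1.5 times and 7 moved it. The 2 genes with an optimal entry in the gene window, rict-1 and aak-2, were also the 2 with 1000 or 2000 bp upstream and with any overlap. In the upper part of the optimal list, with signal of at least 118.9, the number was 0, beside 4.22% of all protein-coding genes. When entries went only to the nearest transcript start it was 1, aak-2, since the rict-1 summit is nearer to gfm-1, beside 6.27% of all genes. Without replicate 1 and without replicate 2, with the first 1489 entries of the other in place of the optimal list, it was 1, rict-1, in both cases, beside 8.30% and 8.27% of all genes. In the promoter window the number was 0 with 500 bp upstream, beside 3.14% of all genes, and 0 in that upper part, beside 1.91%. At such shares a count of 0 among 8 genes is near the background. The 5 other pathway genes became 1, rheb-1, in that upper part, beside 4.22% of all genes, and 4 without replicate 1 and 6 without replicate 2, where 3 of the 4 and 3 of the 6 were among the 5. Of the AMPK subunits only aakg-1 remained without replicate 1, only aakg-5 without replicate 2, and none in the upper part. Genes of the target groups came in instead: hlh-30 without replicate 1, and pha-4, pod-2 and crh-1 without replicate 2. The pooled entries in the windows ranged from 34 to 42, and optimal summits with TGATAAG or the DAF-16 binding element stayed at 0 in each alternative tried. That 0 rests on the summits of rict-1 and aak-2, and on rict-1 alone when a replicate was left out. Beside 13.7% of nuclear optimal summits, so few could hardly have given another count. No paired analysis was possible because there is 1 group. With no counts, depth is unknown. Libraries of input DNA or of animals without the tag were not analysed here, and the background at these genes was not measured.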

Other observations

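Chosen after their values were seen, hlh-30, pha-4 and pod-2 are pathway genes whose highest pooled entries lay below the last optimal rank of 1489. The highest pooled entries of hlh-30, whose product activates autophagy and lysosome genes, and of pha-4, a FOXA factor needed for lifespan extension by diet restriction, ranked 1630 and 1678. hlh-30 ranked 2889 in replicate 1 and 1129 in replicate 2, and pha-4 1348 and 3063, so each was within the first 1489 of 1 replicate. The highest pooled entry of pod-2, which encodes acetyl-CoA carboxylase, an AMPK substrate in many animals, ranked 2011. The highest entries in its window in the replicates, likewise not matched to it, ranked 1113 in replicate 1 and 2864 in replicate 2. The windows of hlh-30 and pod-2 are long, at 23159 and 18921 bp. Next among the pathway genes in pooled rank were lmtr-3 at 2134 and akt-1 at 2222, so no clear gap follows pod-2.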
